A study of Homo sapiens with 4 samples.

Results

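The genes of MHC class I antigen presentation were followed in TPC1, an established cell line from a human papillary thyroid carcinoma with a CCDC6-RET fusion. The members were the rows of the deposited table whose gene symbol is HLA-B, HLA-C, HLA-E, B2M, TAP1, TAP2, TAPBP, PSMB8 or PSMB9. These 9 symbols matched 10 of 20372 rows, because TAP2 is listed under 2 Ensembl identifiers. The row ENSG00000250264 of TAP2 had 0 reads in every library, and each of the 9 symbols had 1 row with enough reads to be tested. Cells of the RETi group had received the RET inhibitor BLU6864 for 24 h, and cells of the RETi + FGFRi group had received BLU6864 and the FGFR inhibitor BGJ398 for 24 h. Both groups thus carried the RET fusion and BLU6864, and no vehicle or BGJ398-only library was analysed here. Each group had 2 libraries of total RNA from this 1 cell line. The labels do not say whether they came from separate cultures, so the spread that the tests rest on may be technical. The labels give the dose of each inhibitor as 100 µM and the methods of the study give the figure in nM, so the unit is uncertain.

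Class I molecules show fragments of a cell's own proteins to CD8+ T cells. A proteasome cuts the protein, the TAP transporter carries the peptides into the endoplasmic reticulum, a loading complex fits them into a heavy chain bound to beta-2 microglobulin, and the loaded complex moves to the cell surface. Interferon-gamma is the textbook inducer of this pathway. It acts through IRF1 and the class I transactivator NLRC5, and it exchanges catalytic subunits of the standard proteasome for those of the immunoproteasome. Loss or low expression of class I genes is a known route by which thyroid and other tumours escape T cells.

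The libraries held 24695040 to 27457040 reads on the 20372 genes. The test covered the 12794 genes that passed the filter on low counts. Levels are given in CPM, each read count divided by the TMM-scaled size of its library and put on the usual CPM scale. Among the markers of other cell types that a dish could hold, PTPRC, which encodes the leukocyte antigen CD45, had at most 3 reads per library, CD3E at most 1, and CD8A and MS4A1 had 0. The monocyte marker CD14 had 62 to 91 reads per library (log2 fold change -0.26, adjusted p = 0.366, edgeR). The summed level of 12 immune markers, of which 2 could be tested and 0 passed, was 99.8 to 103 CPM after RETi and 89.0 to 105 CPM after RETi + FGFRi, most of it CD68, which many cell types express in lysosomes. The 6 fibroblast markers summed to 9.12 to 10.9 CPM after RETi and 9.65 to 10.5 CPM after RETi + FGFRi. Of the 3 tested, LUM was called higher, with 71 and 66 reads against 100 and 101 (log2 fold change 0.64, adjusted p = 0.0266, edgeR), a call lost without RETi replicate 1 (adjusted p = 0.0879) or 2 (0.180) and with DESeq2 (0.125). The endothelial markers summed to 0.982 to 1.78 CPM after RETi and 2.04 to 2.21 CPM after RETi + FGFRi. KDR, the 1 tested, had 44 and 22 reads against 51 and 48 (log2 fold change 0.67, adjusted p = 0.145, edgeR). Beside these marker counts, 12.8% of all 12794 tested genes were called higher and 11.3% lower.

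The summed level of 6 epithelial markers was 124.6 to 124.7 CPM after RETi and 85.6 to 96.1 CPM after RETi + FGFRi, with EPCAM and CDH1 at 3 reads or fewer in every library. Of the 4 tested, 3 keratin genes fell, namely KRT18 (log2 fold change -0.72, adjusted p = 0.000711, edgeR), KRT7 (-0.68, adjusted p = 0.00621) and KRT8 (-0.28, adjusted p = 0.0244). Over all tested genes 12.8% were called higher and 11.3% lower. The call of KRT8 was lost without RETi replicate 1 (adjusted p = 0.0947), RETi replicate 2 (0.160) or RETi + FGFRi replicate 1 (0.0726) and with DESeq2 (0.0504). LUM and the keratin genes were chosen after their values were seen, and what part these markers had in the results below was not tested. Of the 8 thyroid markers 4 were tested and 0 passed, beside the same whole-table shares. They summed to 771 to 818 CPM after RETi and 714 to 811 CPM after RETi + FGFRi, most of it PAX8. PAX8 had 18168 to 21660 reads per library (log2 fold change -0.056, adjusted p = 0.699, edgeR) and FOXE1 had 345 to 556 (-0.30, adjusted p = 0.0970). HHEX had 135 to 186 (-0.088, adjusted p = 0.745) and TG had 98 to 149 (0.44, adjusted p = 0.101). The other 4 had 10 or fewer reads in every library, with NKX2-1 at 0 and TSHR at most 1. In RNA from whole cultures, a smaller share of cells that express a gene and less RNA per cell cannot be told apart.

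The DNA just upstream of several members is printed here because these genes share short control motifs and because TAP1 and PSMB9 are read from opposite sides of the same stretch. RefSeq windows (GRCh38.p14, 250 bases before the annotated start, 5′ to 3′ on the strand of the gene) were at hand for 8 of 9 members in 10 entries, TAP1 and PSMB8 having 2 each, and not for HLA-E. Capitals mark matches, on either strand, to an interferon-stimulated response element (ISRE, the letters GAAA, any 2 bases and GAAA), a gamma-activated site (GAS, TTCNNNGAA), CCAAT, the TGACG letters of a CREB/ATF site, an AP-1 site (TGANTCA) or an NF-kB site. The set begins with B2M, the member with the largest change (chr15:44711267-44711516, plus strand). HLA-B, a heavy chain gene, lies at chr6:31357180-31357429 (minus strand), PSMB8 at chr6:32844680-32844929 (minus strand), TAP1 at chr6:32853705-32853954 (minus strand) and PSMB9 at chr6:32853942-32854191 (plus strand).
B2M: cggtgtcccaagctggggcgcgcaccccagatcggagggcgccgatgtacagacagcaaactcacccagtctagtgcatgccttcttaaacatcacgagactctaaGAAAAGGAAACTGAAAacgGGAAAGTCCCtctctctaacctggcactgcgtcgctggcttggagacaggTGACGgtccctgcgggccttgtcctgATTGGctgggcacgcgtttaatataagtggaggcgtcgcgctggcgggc
HLA-B: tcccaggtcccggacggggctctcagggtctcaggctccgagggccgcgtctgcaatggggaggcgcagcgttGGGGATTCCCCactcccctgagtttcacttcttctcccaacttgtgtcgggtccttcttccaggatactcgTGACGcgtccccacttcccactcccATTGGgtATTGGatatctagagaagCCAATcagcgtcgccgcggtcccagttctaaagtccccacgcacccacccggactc
PSMB8: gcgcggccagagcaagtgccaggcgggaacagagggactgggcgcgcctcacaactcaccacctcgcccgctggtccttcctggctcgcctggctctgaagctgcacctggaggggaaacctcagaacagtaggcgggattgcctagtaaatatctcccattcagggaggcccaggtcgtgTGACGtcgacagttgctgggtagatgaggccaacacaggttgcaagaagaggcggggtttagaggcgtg
TAP1: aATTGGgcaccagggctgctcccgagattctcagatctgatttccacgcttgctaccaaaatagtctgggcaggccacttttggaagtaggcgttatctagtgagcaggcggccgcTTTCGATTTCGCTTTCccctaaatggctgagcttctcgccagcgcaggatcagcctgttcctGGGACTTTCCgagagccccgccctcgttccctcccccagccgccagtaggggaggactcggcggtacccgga
PSMB9: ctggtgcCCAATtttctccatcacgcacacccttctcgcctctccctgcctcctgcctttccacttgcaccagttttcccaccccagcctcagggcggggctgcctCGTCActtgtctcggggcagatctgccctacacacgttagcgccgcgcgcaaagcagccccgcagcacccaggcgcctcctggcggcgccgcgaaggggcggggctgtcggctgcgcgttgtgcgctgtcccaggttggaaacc
The starts of TAP1 and PSMB9 face away from each other across 487 bases, and their windows share 13 bases, so the CCAAT letters at the far end of each window are the same bases.

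Counting from the annotated start, the B2M window held overlapping ISRE matches at 144 and 138 bases, an NF-kB match at 125, TGACG at 75 and CCAAT at 49. The TAP1 window held overlapping ISRE matches at 134 and 128 bases and an NF-kB match at 72. In HLA-B, 2 overlapping NF-kB matches began at 177 and 176 bases, TGACG lay at 106, and CCAAT lay at 81, 74 and 56. The printed PSMB8 window had TGACG at 69 bases, and the PSMB9 window had CCAAT at 243 and TGACG at 144. The other entries of PSMB8 and TAP1, not printed here, each held a GAS match, at 65 and 189 bases. An ISRE match was found in 4 of the 10 member entries (B2M, TAP1, TAP2 and TAPBP) and in 3.02% of all 35116 promoter windows of the table. An NF-kB match was found in 5 entries and in 9.96% of all windows, TGACG in 6 entries and 21.2%, CCAAT in 5 entries and 32.0%, and GAS in 2 entries and 6.57%. No member entry held the AP-1 letters, which 6.57% of all windows held. A match is a description of these letters and not a binding site.

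B2M, PSMB8 and PSMB9 rose after RETi + FGFRi, and no member fell. In the edgeR fit over all genes 3 of the 9 members were higher, 0 were lower and 6 did not pass the test at an adjusted p under 0.05. Over all tested genes 12.8% were called higher and 11.3% lower. The median log2 fold change of the members was 0.12, and that of all tested genes was 0.00043. The CPM of the groups did not overlap for 4 members, all of them higher after RETi + FGFRi (B2M, TAP1, PSMB8 and PSMB9), and 0 were lower without overlap. Of all tested genes 31.7% were higher and 33.4% lower without overlap, 65.2% in either direction. An exact permutation test of 2 libraries against 2 cannot give a two-sided p below 0.333, so the calls rest on the spread shared across genes in the edgeR fit. Without RETi + FGFRi replicate 2, 5 members were higher, and without RETi + FGFRi replicate 1, 1 member was lower.

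**Figure D1:**
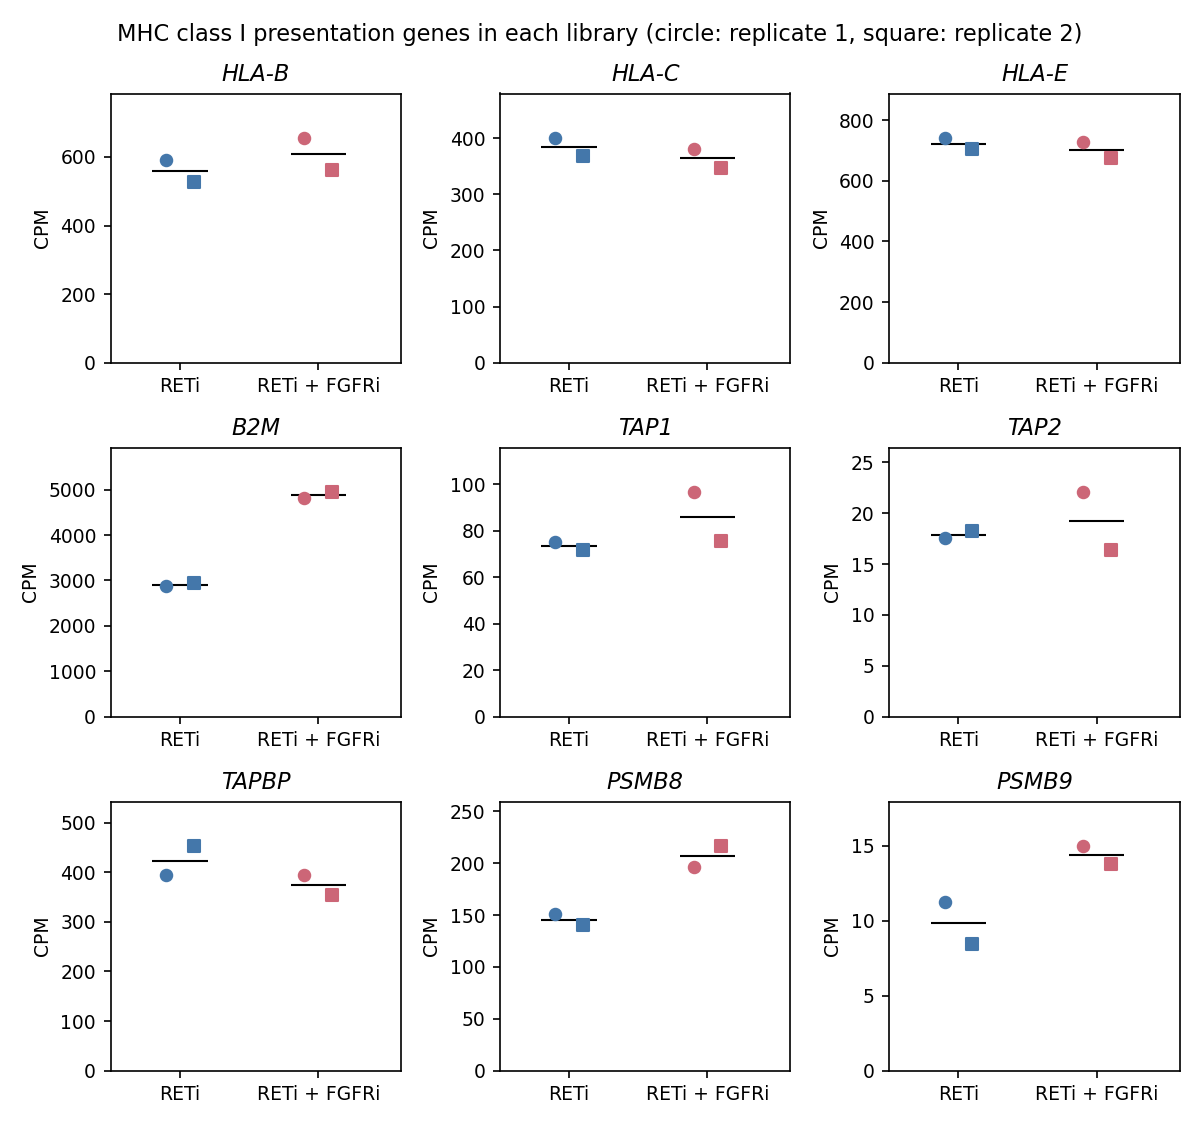
CPM of the 9 members in each library, with replicate 1 as a circle, replicate 2 as a square and the group mean as a bar (n = 2 per group, axes start at 0). B2M, PSMB8, PSMB9 and, narrowly, TAP1 lie higher in both RETi + FGFRi libraries, and the groups overlap for HLA-B, HLA-C, HLA-E, TAP2 and TAPBP.

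B2M, which encodes the beta-2 microglobulin light chain that every classical class I heavy chain needs to fold and reach the surface, had the largest change of the members. B2M (ENSG00000166710, chromosome 15, 45003675 to 45011075, hg19) had 77341 and 81038 reads in RETi replicates 1 and 2, and 119913 and 130600 reads in RETi + FGFRi replicates 1 and 2. Both RETi + FGFRi libraries were above both RETi libraries, by far more than the replicates of a group differed. The level rose from 2907 ± 56.4 CPM to 4884 ± 81.1 CPM (SD, n = 2 each), 1.68-fold with a 95% interval of 1.44 to 1.95 (log2 fold change 0.75, SE 0.099, adjusted p = 0.000833, edgeR). B2M took 0.292% and 0.295% of all reads after RETi and 0.486% and 0.481% after RETi + FGFRi. By read count it ranked 18 and 19 among the genes of the RETi libraries, and 7 and 8 in the RETi + FGFRi libraries. The call held without each library in turn, with log2 fold changes of 0.73 to 0.78 and an adjusted p of at most 0.0172.

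The heavy chains, which carry the peptide groove, did not pass the test. HLA-B (ENSG00000234745, chromosome 6, 31321649 to 31324965) had 15954 and 14495 reads after RETi and 16254 and 14869 after RETi + FGFRi, or 591.5 and 527.2 CPM against 654.2 and 562.5 CPM. The groups overlapped, and the log2 fold change was 0.12 (SE 0.099, adjusted p = 0.402, edgeR), with an interval of 0.935-fold to 1.27-fold. HLA-C (ENSG00000204525, 31236526 to 31239907), which also serves as a ligand of killer cell receptors, had 10775 and 10135 reads after RETi and 9467 and 9183 after RETi + FGFRi. In CPM these were 399.5 and 368.6 against 381.0 and 347.4, again overlapping, for an interval of 0.832-fold to 1.08-fold (adjusted p = 0.550, edgeR). HLA-E (ENSG00000204592, 30457244 to 30461982), which shows leader peptides of other class I chains to the NKG2A receptor of natural killer cells, had 19966 and 19345 reads after RETi and 18084 and 17888 after RETi + FGFRi. Its 740.3 and 703.6 CPM overlapped with 727.8 and 676.7 CPM, and the interval was 0.853-fold to 1.11-fold (adjusted p = 0.774, edgeR). Each of these intervals ends below the lower bound of that of B2M. Without RETi + FGFRi replicate 2, HLA-B passed with a log2 fold change of 0.22 (adjusted p = 0.0489). HLA genes are close copies of each other and vary between cell lines, so reads can be shared or lost among them, and how such reads were counted is not stated.

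The same read counts can be set against each other within a library, which restates this contrast and is not a further test of it. Reads of B2M per read of HLA-B were 4.85 and 5.59 after RETi and 7.38 and 8.78 after RETi + FGFRi, 1.55-fold higher in the mean. For HLA-C the ratio was 7.18 and 8.0 after RETi and 12.7 and 14.2 after RETi + FGFRi (1.77-fold). For HLA-E it was 3.87 and 4.19 against 6.63 and 7.30 (1.73-fold). Against the sum of the 3 heavy chain members, B2M had 1.66 and 1.84 reads per heavy chain read after RETi and 2.74 and 3.11 after RETi + FGFRi (1.67-fold). None of these ratios overlapped between the groups. Ratios in which neither gene passed the test did not overlap either, so a lack of overlap is not particular to B2M. HLA-B had 1.48 and 1.43 reads per HLA-C read after RETi and 1.72 and 1.62 after RETi + FGFRi. For TAP1 per TAP2 read the values were 4.28 and 3.93 against 4.37 and 4.60. A ratio within a library does not depend on how libraries are scaled. It shows unequal change of its terms and not that either was constant. The 9 members together took 0.534% and 0.525% of the reads after RETi and 0.736% and 0.701% after RETi + FGFRi, while the heavy chain reads were 46695 and 43975 against 43805 and 41940. B2M made up 54.6% and 56.3% of the members' reads after RETi and 66.0% and 68.6% after RETi + FGFRi.

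**Figure D2:**
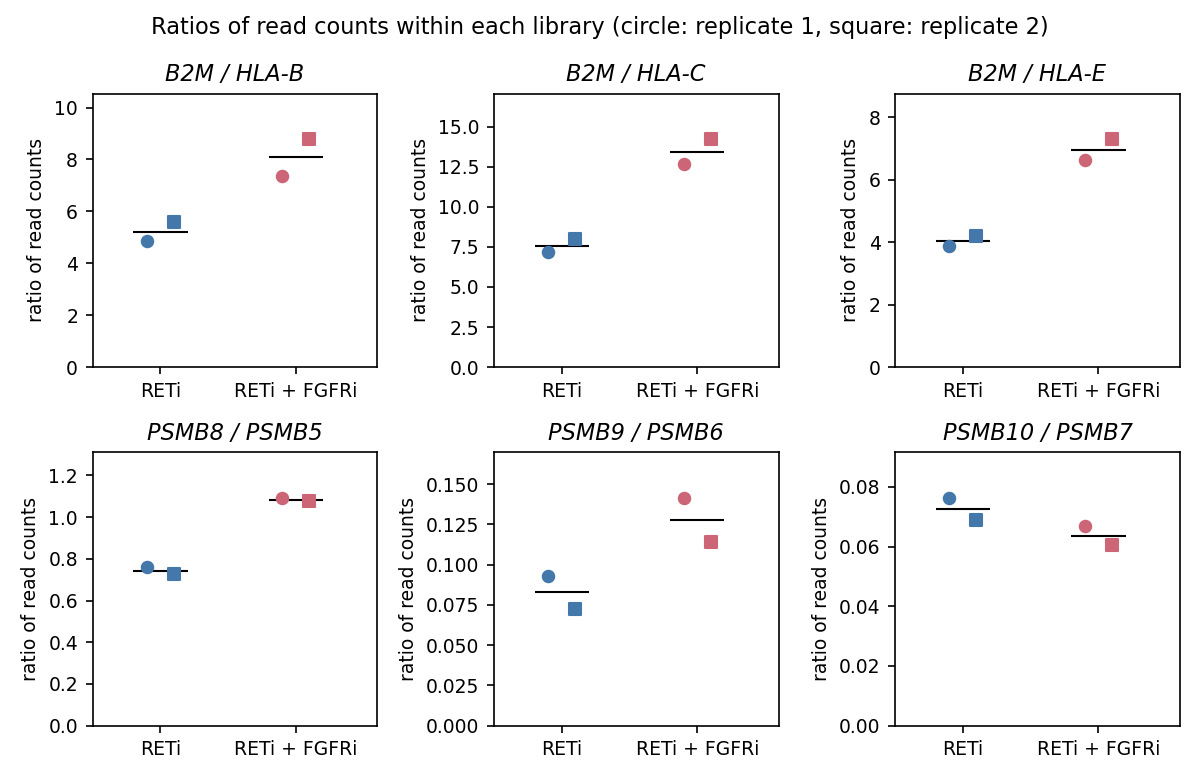
Ratios of read counts within each library for B2M over HLA-B, HLA-C and HLA-E and for 3 immunoproteasome subunits over the standard subunits they replace (circle, replicate 1; square, replicate 2; bar, mean; n = 2 per group). The B2M ratios and those of PSMB8 and PSMB9 are higher in both RETi + FGFRi libraries, and that of PSMB10 over PSMB7 is lower in both.

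The non-classical heavy chain genes outside the 9 members did not pass the test either. HLA-F had 1290 and 1044 reads against 1429 and 1268, with a log2 fold change of 0.30 (adjusted p = 0.0886, edgeR), and passed without RETi replicate 1 (adjusted p = 0.0139) or RETi + FGFRi replicate 2 (adjusted p = 0.00777). HLA-G, best known from the placenta, had 288 and 240 reads after RETi and 267 and 240 after RETi + FGFRi (log2 fold change 0.030, adjusted p = 0.900, edgeR).

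The immunoproteasome members rose. PSMB8 and PSMB9 encode the subunits LMP7 and LMP2, which replace the products of PSMB5 and PSMB6 in the catalytic ring. PSMB8 (ENSG00000204264, chromosome 6, 32808494 to 32812480) had 4064 and 3875 reads after RETi and 4890 and 5719 after RETi + FGFRi, with both RETi + FGFRi libraries above both RETi libraries. Its level rose from 146 ± 6.89 to 207 ± 13.8 CPM (SD, n = 2 each), 1.42-fold with an interval of 1.25 to 1.60 (log2 fold change 0.50, SE 0.081, adjusted p = 0.00202, edgeR). The call held without each library in turn (log2 fold change 0.43 to 0.58, adjusted p at most 0.0311). PSMB9 (ENSG00000240065, 32811913 to 32827362) had 303 and 233 reads after RETi and 372 and 364 after RETi + FGFRi, the lowest RETi + FGFRi level being above the highest RETi level. It rose from 9.85 ± 1.95 to 14.4 ± 0.849 CPM (SD, n = 2 each), 1.46-fold with an interval of 1.18 to 1.80 (log2 fold change 0.54, SE 0.14, adjusted p = 0.0178, edgeR). This call was lost without RETi replicate 2, the lower of the RETi libraries, at a log2 fold change of 0.35 (adjusted p = 0.165). There were 13.4 and 16.6 PSMB8 reads per PSMB9 read after RETi and 13.1 and 15.7 after RETi + FGFRi, and these ratios overlapped.

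The remaining immunoproteasome subunit and the standard subunits did not pass. PSMB10, which encodes MECL-1, the partner of PSMB8 and PSMB9 in the immunoproteasome, had 476 and 453 reads after RETi and 409 and 459 after RETi + FGFRi (log2 fold change -0.012, adjusted p = 0.942, edgeR). PSMB5 had 5334 and 5340 reads against 4471 and 5318 (log2 fold change -0.040, adjusted p = 0.753, edgeR), and PSMB6 had 3264 and 3206 against 2627 and 3190 (log2 fold change -0.069, adjusted p = 0.577, edgeR). PSMB7, the counterpart of PSMB10, had 6230 and 6562 reads against 6112 and 7593 (log2 fold change 0.18, adjusted p = 0.156, edgeR), and passed without RETi + FGFRi replicate 1 (adjusted p = 0.00495). Reads of PSMB8 per PSMB5 read went from 0.762 and 0.726 to 1.09 and 1.08, so that the PSMB8 count was below that of PSMB5 in both RETi libraries and above it in both RETi + FGFRi libraries. Reads of PSMB9 per PSMB6 read were 0.0928 and 0.0727 against 0.142 and 0.114. For PSMB10 per PSMB7 read they were 0.0764 and 0.0690 against 0.0669 and 0.0605, lower in both RETi + FGFRi libraries. POMP, the chaperone that builds new proteasomes and favours LMP7, rose, with 3680 and 3768 reads after RETi and 3887 and 4607 after RETi + FGFRi (log2 fold change 0.27, adjusted p = 0.0289, edgeR). The POMP call was lost without RETi replicate 1 (adjusted p = 0.141), RETi replicate 2 (0.153) or RETi + FGFRi replicate 2 (0.0866). Over the list of 11 proteasome genes and activators 3 were higher, 0 lower and 8 did not pass, with a median log2 fold change of 0.13. Without the 2 members the median was -0.012. The shares over all tested genes were 12.8% higher and 11.3% lower. The activator genes PSME2 (0.19, adjusted p = 0.0842), PSME3 (-0.17, adjusted p = 0.109) and PSME4 (-0.19, adjusted p = 0.128) are given as log2 fold changes, and PSME4 passed without RETi + FGFRi replicate 1 (adjusted p = 0.0160).

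Neither transporter gene passed the test. TAP1 and TAP2 encode the partner chains of the TAP peptide pump. TAP1 (ENSG00000168394, chromosome 6, 32812986 to 32821755) had 2023 and 1971 reads after RETi and 2396 and 1996 after RETi + FGFRi, or 75.0 and 71.7 CPM against 96.4 and 75.5 CPM. The groups did not overlap, but the lower RETi + FGFRi library lay within 1 CPM of the higher RETi library, and the log2 fold change was 0.23 (SE 0.10, interval -0.0020 to 0.46, adjusted p = 0.135, edgeR). Without RETi + FGFRi replicate 2, TAP1 passed with a log2 fold change of 0.39 (adjusted p = 0.00185). TAP2 (ENSG00000204267, 32789610 to 32806557) had 473 and 502 reads after RETi and 548 and 434 after RETi + FGFRi, with the RETi + FGFRi libraries on both sides of the RETi libraries (log2 fold change 0.10, SE 0.13, adjusted p = 0.604, edgeR). RETi + FGFRi replicate 1 was the higher library of its group for TAP1, TAP2, HLA-B, HLA-C, HLA-E, TAPBP and PSMB9 in CPM, and the lower for B2M and PSMB8.

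TAPBP encodes tapasin, the bridge between TAP and the heavy chain that edits which peptides stay bound. TAPBP (ENSG00000231925, chromosome 6, 33267471 to 33282164) had 10628 and 12436 reads after RETi and 9791 and 9352 after RETi + FGFRi. The log2 fold change was -0.18 (SE 0.094, interval -0.39 to 0.029, adjusted p = 0.191, edgeR). In CPM the 394.06 of RETi + FGFRi replicate 1 and the 394.06 of RETi replicate 1 were equal to 2 decimals, and TAPBP was called lower without RETi + FGFRi replicate 1 (log2 fold change -0.25, adjusted p = 0.0312). Of the 8 other loading and trimming genes 0 were higher, 3 were lower and 5 did not pass. Over all tested genes 12.8% were higher and 11.3% lower. The median log2 fold change of these 8 genes was -0.14. The genes that fell were CALR, PDIA3 and HSPA5. CALR, which encodes calreticulin, had 37815 and 36276 reads against 27859 and 27134 (log2 fold change -0.34, adjusted p = 0.0226, edgeR). PDIA3, which encodes the ERp57 disulphide isomerase bound to tapasin, had 10499 and 10661 against 8068 and 8359 (-0.28, adjusted p = 0.0245), and HSPA5, the general chaperone BiP, had 25613 and 25498 against 20555 and 18115 (-0.31, adjusted p = 0.0469). Without RETi replicate 1 or 2 these calls were lost. The log2 fold changes were then -0.29 and -0.39 for CALR, -0.27 and -0.28 for PDIA3 and -0.29 and -0.33 for HSPA5. The HSPA5 call was also lost without RETi + FGFRi replicate 2 (log2 fold change -0.18). ERAP1, the peptidase that trims peptides in the endoplasmic reticulum, had a log2 fold change of -0.15 (adjusted p = 0.202, edgeR). CANX, which encodes the chaperone calnexin, was not among the genes with the smallest p, and its log2 fold change was -0.13 (adjusted p = 0.308). Of 8 cytosolic peptidases 0 passed in either direction, with a median log2 fold change of -0.15. DPP9 (log2 fold change -0.22, adjusted p = 0.0895) was called lower without RETi + FGFRi replicate 1 (-0.31, adjusted p = 0.0110), and THOP1 (-0.23, adjusted p = 0.0643) with library totals as the scaling (adjusted p = 0.0454).

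**Figure D3:**
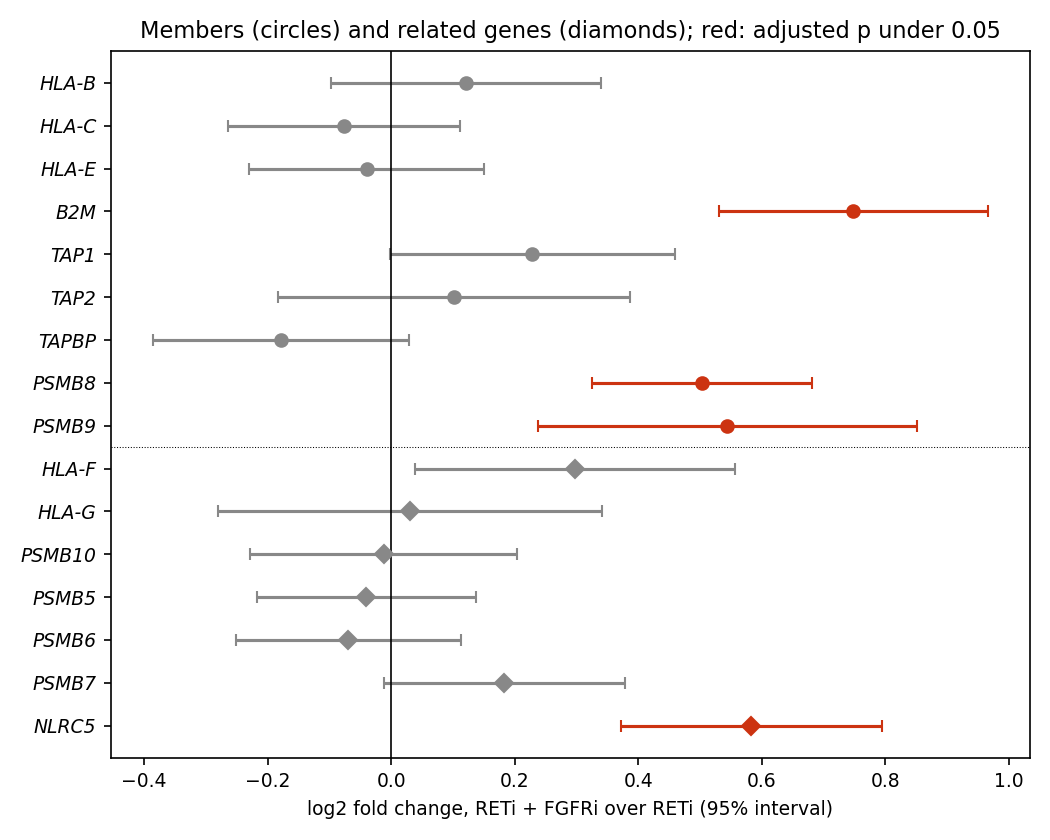
Log2 fold change, RETi + FGFRi over RETi, with its 95% interval from the edgeR fit for the 9 members (circles) and 7 related genes (diamonds). Red marks an adjusted p under 0.05. The intervals of B2M, PSMB8, PSMB9 and NLRC5 lie above 0, and so does that of HLA-F, which was not called (adjusted p = 0.0886, edgeR). Those of HLA-B, HLA-C, HLA-E, TAP1, TAP2, TAPBP and the other related genes include 0.

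TAP1, PSMB9, PSMB8 and TAP2 lie side by side in the class II part of the MHC, and their deposited spans overlap. The whole TAP1 span of 8770 bases lies within that of PSMB9, of which it makes up 56.8%. PSMB8 and PSMB9 share 568 bases. The tested TAP2 row lies within the TAP2 row that had no reads. PSMB9 is read from the plus strand and the others from the minus strand. Whether reads were counted by strand is not stated, so reads in the shared stretches are uncertain. PSMB9 had 233 to 372 reads per library, beside 1971 to 2396 for TAP1 and 3875 to 5719 for PSMB8, and the part that reads of these neighbours had in the PSMB9 count was not tested. The PSMB9 count per TAP1 read was 0.150 and 0.118 after RETi and 0.155 and 0.182 after RETi + FGFRi.

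**Figure D4:**
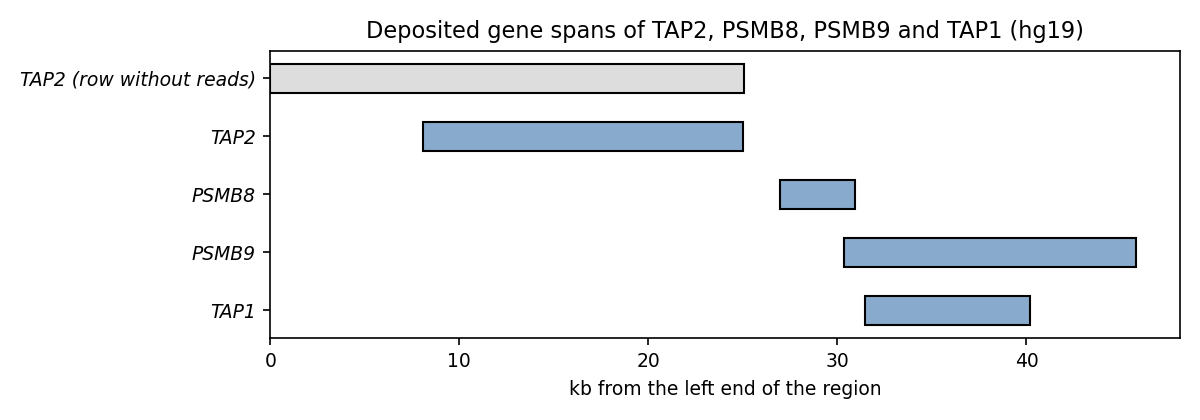
Deposited spans of TAP2, PSMB8, PSMB9 and TAP1 on chromosome 6 (hg19), drawn to scale in kb from the left end of the region, with the TAP2 row without reads in grey. TAP1 lies wholly within the span of PSMB9, which also overlaps the end of PSMB8.

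Levels of different genes were compared per kb of transcript (GENCODE canonical transcript). B2M was the most abundant member at 4131 CPM per kb (lowest to highest library 3041 to 5240). It was followed by HLA-B at 380.1 (343.2 to 425.9), HLA-E at 279.5 (265.6 to 290.5) and HLA-C at 242.6 (225.3 to 259.1), and these ranges do not overlap. The ranges hold the spread between libraries only. Reads shared or lost among the HLA genes were not accounted for, so the order of these genes is uncertain. PSMB8 at 156.8 (125.4 to 192.5) and TAPBP at 115.5 (102.6 to 131.1) overlapped over the 4 libraries. After RETi PSMB8 had 134.1 and 125.4 CPM per kb and TAPBP 114.2 and 131.1, which overlapped, and after RETi + FGFRi PSMB8 had 175.1 and 192.5 and TAPBP 114.2 and 102.6, which did not. TAP1 at 29.7 (26.7 to 35.9), PSMB9 at 11.9 (8.33 to 14.7) and TAP2 at 3.29 (2.91 to 3.91) CPM per kb were the lowest. TAP1 had 4.28 and 3.93 reads per TAP2 read after RETi and 4.37 and 4.60 after RETi + FGFRi. With the deposited gene span as the length, PSMB9 and TAP2 changed places and the other 7 kept theirs.

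Of the 20 tested transcription factors of class I genes 4 were higher, 1 was lower and 15 did not pass, with a median log2 fold change of 0.088, where 12.8% of all tested genes were higher and 11.3% lower. NLRC5, the transactivator of class I promoters, rose from 1128 and 1215 reads after RETi to 1749 and 1546 after RETi + FGFRi (log2 fold change 0.58, SE 0.096, adjusted p = 0.00227, edgeR), and the call held without each library in turn. RFX5, a DNA-binding partner of NLRC5, fell, with 2756 and 2659 reads against 2173 and 2055 (log2 fold change -0.27, adjusted p = 0.0359, edgeR). STAT2, which acts in the type I interferon response, rose, with 4434 and 4491 reads against 6231 and 4876 (log2 fold change 0.41, adjusted p = 0.0305, edgeR), and ATF1, a CREB-family factor, rose by 0.27 on the log2 scale (adjusted p = 0.0328). NFYB, a subunit of the factor that binds CCAAT, was chosen after its values were seen and rose by 0.28 on the log2 scale (adjusted p = 0.0394). Without RETi replicate 1 or 2 the adjusted p was 0.217 and 0.101 for RFX5, 0.0572 and 0.129 for STAT2, 0.171 and 0.132 for ATF1 and 0.0703 and 0.236 for NFYB. Without RETi + FGFRi replicate 2 it was 0.119 for RFX5, 0.112 for ATF1 and 0.156 for NFYB, and without RETi + FGFRi replicate 1 it was 0.0960 for STAT2. DESeq2 did not call ATF1 (adjusted p = 0.0623) or NFYB (0.0861).

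IRF1, a usual carrier of an interferon-gamma signal, did not pass. It had 1248 and 1238 reads after RETi and 1218 and 1337 after RETi + FGFRi (log2 fold change 0.13, adjusted p = 0.254, edgeR). CIITA, the class II counterpart of NLRC5, had 11 and 6 reads after RETi and 15 and 10 after RETi + FGFRi (0.64, adjusted p = 0.379).

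Among the 12 tested interferon and TNF receptors, kinases and inhibitors, 2 were higher, 3 lower and 7 did not pass, with a median log2 fold change of 0.078. Over all tested genes 12.8% were higher and 11.3% lower. IFNGR1, the ligand-binding chain of the interferon-gamma receptor, rose from 4458 and 4251 reads to 5903 and 6482, 1.51-fold (log2 fold change 0.59, adjusted p = 0.00072, edgeR), and this call held without each library in turn. IFNAR2, a chain of the type I interferon receptor, rose from 1148 and 1174 to 1462 and 1391 reads (0.39, adjusted p = 0.00820). SOCS1, the inhibitor of JAK kinases, fell from 116 and 99 to 57 and 62 reads (-0.77, adjusted p = 0.0159). TNFRSF1A, the main TNF receptor gene, fell from 10362 and 10894 to 7452 and 8414 reads (-0.34, adjusted p = 0.0125). IFNLR1, a chain of the interferon-lambda receptor chosen after its values were seen, fell from 192 and 195 to 140 and 125 reads (-0.46, adjusted p = 0.0433). The call was lost without RETi replicate 2 for IFNAR2 (adjusted p = 0.0578), without RETi replicate 1 for SOCS1 (0.143), without RETi replicate 1 or 2 for TNFRSF1A (0.0711 and 0.113) and IFNLR1 (0.159 and 0.172), and without RETi + FGFRi replicate 2 for IFNLR1 (0.154). DESeq2 gave 0.0659 for SOCS1 and 0.159 for IFNLR1.

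Interferon transcripts themselves were scarce. Of 10 interferon and TNF genes, 8 had 10 or fewer reads in every library, and 4 of these had 0 in all. Of the 2 tested, IFNE, an interferon known from epithelia of the reproductive tract, rose from 25 and 32 to 84 and 49 reads (log2 fold change 1.31, adjusted p = 0.0148, edgeR). The IFNE call was lost without RETi replicate 1 (adjusted p = 0.0529), RETi replicate 2 (0.0524) or RETi + FGFRi replicate 1 (0.0613). TNF had a log2 fold change of 0.012 (adjusted p = 0.978). Class II genes were nearly silent, with 11 of 13 at 10 or fewer reads in every library and 5 of these at 0 in all. The tested ones, CTSS (0.40, adjusted p = 0.102) and HLA-DMA (-0.61, adjusted p = 0.289), encode a lysosomal protease and a peptide loader, and did not pass. CTSS passed without RETi + FGFRi replicate 2 (adjusted p = 0.0283).

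A further list held class I-like molecules and the stress ligands of the NKG2D receptor, which natural killer cells read beside class I. Of 10 tested genes 0 were higher, 2 lower and 8 did not pass, with a median log2 fold change of -0.35. Of all 12794 tested genes 9705 did not pass, 12.8% were higher and 11.3% lower. MICA, an NKG2D ligand, fell from 823 and 801 to 573 and 595 reads (log2 fold change -0.39, adjusted p = 0.00874, edgeR). HFE, a B2M-bound regulator of iron uptake, fell from 906 and 912 to 676 and 702 reads (-0.31, adjusted p = 0.0186). MICA was lost without RETi replicate 1 (adjusted p = 0.0645), and HFE without RETi replicate 1 or 2 (0.103 and 0.0920) and with DESeq2 (0.0587). MICB (-0.97, adjusted p = 0.109) and RAET1E (-0.97, adjusted p = 0.0899) had 8 to 27 reads per library, and MICB passed without RETi + FGFRi replicate 1 (0.0450).

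Of 9 tested checkpoint and evasion genes 1 was higher, 4 were lower and 4 did not pass. The shares over all tested genes were 12.8% higher and 11.3% lower. NT5E, which encodes the adenosine-producing ecto-enzyme CD73, fell from 6982 and 6718 to 2463 and 2345 reads (log2 fold change -1.42, adjusted p = 3.23e-06, edgeR), and CD276, the B7-H3 gene, fell from 4219 and 4514 to 2554 and 2700 reads (-0.65, adjusted p = 0.000358). Both calls held without each library in turn. PVRL2 (-0.32, adjusted p = 0.0119) and PVR (-0.31, adjusted p = 0.0225), which encode ligands of TIGIT and DNAM-1, fell as well. CD47, the signal against phagocytosis, was chosen after its values were seen and rose (0.27, adjusted p = 0.0334). Without RETi replicate 1 or 2 the adjusted p was 0.0803 and 0.0987 for PVRL2, 0.171 and 0.0536 for PVR and 0.112 and 0.18 for CD47, and PVR was lost without RETi + FGFRi replicate 2 (0.0643) and CD47 without RETi + FGFRi replicate 1 (0.0938).

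Of 8 tested genes of class I traffic and surface turnover 1 was higher, 2 were lower and 5 did not pass. Over all tested genes 12.8% were higher and 11.3% lower. SAR1A, a GTPase of vesicles that leave the endoplasmic reticulum, rose (log2 fold change 0.36, adjusted p = 0.0111, edgeR). BCAP31, a cargo receptor for class I export, fell (-0.32, adjusted p = 0.0144), and so did the ubiquitin ligase gene WWP2 (-0.26, adjusted p = 0.0462). SPPL3, a protease that trims glycosyltransferases, had a log2 fold change of -0.24 (adjusted p = 0.0743) and passed without RETi replicate 1 (0.0483). Without RETi replicate 1 or 2 the adjusted p was 0.0786 and 0.10 for SAR1A, 0.0699 and 0.136 for BCAP31 and 0.0723 and 0.303 for WWP2, which was also lost without either RETi + FGFRi library (0.0587 and 0.0832) and with DESeq2 (0.127). Over all 11 pathway lists with the members left out, and beside the same whole-table shares, 10 genes were higher and 15 lower. Both counts fell when either RETi library was left out, and so did the counts over the whole table.

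**Figure D5:**
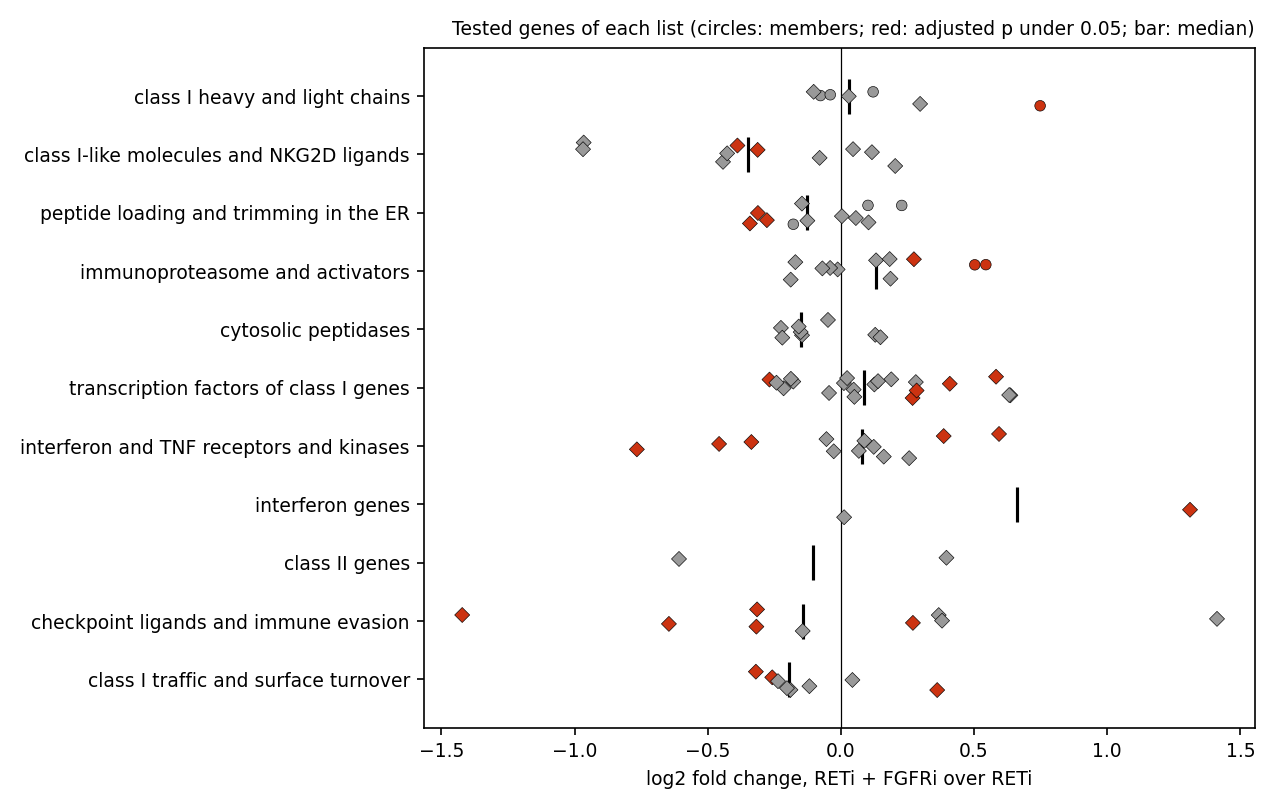
Log2 fold change, RETi + FGFRi over RETi, of every tested gene of the 11 pathway lists (circles, members; diamonds, other genes; bars, medians), with an adjusted p under 0.05 in red. B2M stands at 0.75, the highest of its list, PSMB8 and PSMB9 stand at 0.50 and 0.54, and the list of class I-like molecules has its median at -0.35.

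The centred log2 CPM of the members, averaged, was -0.072 and -0.14 in the RETi libraries and 0.18 and 0.033 in the RETi + FGFRi libraries. The 5 genes outside all lists with the most similar profile over the 4 libraries, by Euclidean distance on the log2 scale among 11174 genes that averaged 50 reads or more, were LRRC37B (0.0152), ZNF276 (0.0153), ZNF674 (0.0171), DPH1 (0.0190) and KIF13A (0.0205). With 4 libraries that share these treatments, close profiles are a description only.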

How the data were processed

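RNA of 4 TPC1 libraries was sequenced, 2 per group as labelled. Per the labels, TruSeq libraries were read on a HiSeq as single ends. STAR 2.3, DESeq2 and hg19 are listed in the submitters' processing notes. The methods of the study describe paired-end reads, and the counting tool and its use of strand are not given in the sources used here. Raw counts per gene, not normalised, were deposited for each library. The authors' other column per library is a signal, the count over a library factor, used here only as an alternative scaling. The table also holds the authors' DESeq2 comparison (fold changes, p-values), which was not used. There were 0 columns of other samples.

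The test was the quasi-likelihood F-test of edgeR 4.0.16 (R 4.3.3) on TMM-scaled counts of genes kept by filterByExpr (minimum 10 reads). It used 1 fit of all 4 libraries with no covariate, Benjamini-Hochberg adjustment over 12794 genes and calls at an adjusted p under 0.05. The SE is that of the log2 fold change, and intervals are 95%. The fit had 2 residual and 8.96 prior degrees of freedom. Totals of 24695040 to 27457040 reads set the counting precision. Replicates differed beyond sampling noise (chi-square per degree of freedom 7.91 and 14.0) and were not merged. The steps were tested on simulated data with 200 genes changed, far fewer than the 3089 called here. Each simulated gene took its spread from the trend over all genes, without the departures of single genes that real data can hold. Of 100 genes changed 1.5-fold 78 were recovered, and of 100 changed 2-fold 94 were, with 14 false calls. Alternatives were DESeq2 1.42.0, other scalings, no low-count filter, a replicate block and leaving out each library. Of the 126 entries of 11 pathway lists, 2 had no match. All 9 members were named, with the 4 smallest p of each list, 7 further genes whatever their result and the 5 closest profiles (log2 of CPM + 0.5). NFYB, IFNLR1, CD47, CANX, LUM, KDR, FOXE1, HHEX, TG and keratin genes were added after their values were seen. Some items are not reported here. Members and lists were chosen with earlier results of these data known. Promoters are from RefSeq (GRCh38.p14).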

Additional observations from a re-analysis of the deposited data

How the results depend on the processing

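B2M and PSMB8 were called higher under every alternative run, and PSMB9 under each but the one without RETi replicate 2. Of the 32 called genes named, 8 kept their call without each library in turn (B2M, PSMB8, NLRC5, IFNGR1, NT5E, CD276, KRT7 and KRT18). Leaving out each library gave 691 to 1942 genes higher and 553 to 1503 lower over the whole table, against 1643 and 1446. It gave 2 to 5 members higher and 0 to 1 lower, and 2 to 16 other pathway genes higher and 3 to 19 lower, against 10 and 15. The counts over the whole table were lowest without a RETi library (850 and 653 without replicate 1, 691 and 553 without replicate 2), and the cause was not tested. The replicate differences of the groups correlated at 0.025 over the tested genes. This value cannot decide whether replicate numbers pair the samples. With a replicate block 2041 genes were higher and 1738 lower over the whole table. With a replicate block 16 other pathway genes were higher, TAP1 passed (log2 fold change 0.22, adjusted p = 0.0394), HLA-F passed (adjusted p = 0.00619), and TNF turned to -0.0010, as it did with library totals (-0.014). With the block SPPL3 (adjusted p = 0.0322) and DPP9 (0.0476) passed as lower, and with library totals SPPL3 (0.0411) and THOP1 (0.0454) did. NFYB and CD47 were lost with library totals (0.0552 and 0.0543), NFYB and WWP2 without the low-count filter (0.0511 and 0.0522), and WWP2 with DESeq2 size factors (0.0506). With the gene span as length, 7 members kept their rank. All 32 called genes named kept their direction when a library was left out, also where the call was lost. The directions of the following uncalled genes turned when a library was left out, with these ranges of log2 fold change: TAP2 from -0.11 to 0.30, HLA-E from -0.081 to 0.010, HLA-G from -0.11 to 0.19, TNF from -0.39 to 0.35, PSMB10 from -0.063 to 0.044, PSMB5 from -0.12 to 0.050 and PSMB6 from -0.17 to 0.035. Under the other scalings the median log2 fold change of all tested genes lay between -0.028 and 0.0085. Depth limits CIITA, MICB, RAET1E, IFNE and the class II genes, which had few reads.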
